A study of Mus musculus with 15 samples.

Results

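The cytosolic ribosomal protein genes were examined in whole brains of 15 male wildtype C57BL/6J mice. A gene was included if its symbol was Rpl or Rps followed by a number, with at most one suffix a, l, x or y, or was Rplp0, Rplp1, Rplp2 or Rpsa, and if it had at least 10 counts summed over the 15 mice. This gave 79 of the 43629 genes in the annotation, 31 of the small (40S) and 48 of the large (60S) subunit. Other symbols had the right form but too few counts: Rps27 with 7 counts, Rpl6l with 1 and Rpl10l with 0. Just above the limit were Rpl39l with 14 counts, Rpl3l with 20 and Rps13 with 25.

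The mice fell into 4 groups. Young mice fed ad libitum (young AL, n = 4) and young mice under every-other-day feeding (young EOD, n = 3) were 3 months old by the labels, and old AL (n = 4) and old EOD mice (n = 4) were 24 months old. In EOD feeding, days with free access to food alternate with days without food. The paper describes short-term EOD for its young mice and almost lifelong EOD for its old mice. Age and length of EOD therefore could not be told apart in the EOD mice. All animals were inbred, male and wildtype, and each library came from RNA of the whole brain, so that a lower share of one cell type and less RNA per cell could not be told apart. The comparisons ask whether the genes of the ribosome differ between young and old brains and whether they differ between the diets. They also ask whether the age difference is the same in AL and EOD mice.

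The ribosome translates mRNA into protein. Its small subunit decodes the mRNA and its large subunit forms the peptide bonds, and each ribosomal protein is needed in about equal amounts for assembly. Mammalian ribosomal protein mRNAs usually begin with a C followed by an unbroken run of pyrimidines, the terminal oligopyrimidine (TOP) motif, through which mTOR signalling controls their translation. The genes are also among those with the most processed pseudogenes, intronless copies left by retrotransposition of their mRNAs.

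Start sites are shown because a TOP motif would lie there. The count below took any pyrimidine run in the window, without asking for a leading C or a fixed position, so it is not a count of TOP motifs. RefSeq start sites (GRCm38.p6) were found for 58 of the 79 genes, and a run of at least 8 pyrimidines (C or T) within 15 bases of the start, read on the gene's own strand, was present in 25 of the 58 genes, or 43.1%, against 13.9% of all 27025 genes in the same windows. The following 30-base windows are printed 5′ to 3′ with the longest pyrimidine run in capitals.
Rps6 (chr4:86857353-86857382, minus strand): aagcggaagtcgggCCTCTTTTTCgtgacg
Rpl7a (chr2:26910792-26910821, plus strand): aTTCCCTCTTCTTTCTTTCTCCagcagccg
Rpl35 (chr2:39005117-39005146, minus strand): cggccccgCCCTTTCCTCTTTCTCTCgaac
Rpl15 (chr14:18270972-18271001, minus strand): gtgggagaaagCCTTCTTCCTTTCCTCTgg
Rps3 (chr7:99483695-99483724, minus strand): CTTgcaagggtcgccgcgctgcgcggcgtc
The run was 21 bases long in Rpl7a, 18 in Rpl35, 17 in Rpl15 and 10 in Rps6. Rps3, which had the second highest count of all 79 genes, held no run longer than 3 bases in the window of its RefSeq start.

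Coding sequence is shown because it decides which copies a read can be told from. The first 50 bases of the coding sequence, the length of a read in this study, are given for 3 paralogue pairs with the bases that differ within a pair in capitals.
Rpl39: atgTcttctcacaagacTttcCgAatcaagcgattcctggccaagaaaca
Rpl39l: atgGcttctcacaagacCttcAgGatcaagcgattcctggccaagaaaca
Rpl3: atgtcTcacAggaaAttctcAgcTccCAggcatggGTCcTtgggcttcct
Rpl3l: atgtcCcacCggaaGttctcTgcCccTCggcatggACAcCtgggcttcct
Rps27: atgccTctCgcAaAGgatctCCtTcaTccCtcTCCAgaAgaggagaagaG
Rps27l: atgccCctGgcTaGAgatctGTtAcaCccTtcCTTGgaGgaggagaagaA
The pairs differed at 4, 11 and 16 of the 50 positions. The Rpl39 and Rpl3 windows each occurred in transcripts of 4 other genes and the Rps27 window in 1, whereas those of Rpl39l, Rpl3l and Rps27l occurred in none. The same window of Rps6, the small-subunit protein phosphorylated downstream of mTOR, occurred in 7 other genes.

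Libraries held 5198748 to 13610729 counts per mouse, from 3 sequencing lanes, with no young EOD mouse in lane 3. The third young AL mouse stood apart: it had the largest total and the fewest genes with a count (17280), and its median correlation with the other mice over genes was 0.957, against at least 0.980 for every other mouse. Results that rest on it are given with and without it. Marker genes of pituitary, a gland next to the brain, reached a summed 1039 CPM (counts scaled to the library's effective size) in one old AL mouse and at most 8.19 CPM in any young AL mouse, and their part in the results below was not tested.

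Levels differed widely between genes that are needed in equal amounts. Rpl4, a protein lining the large subunit's exit tunnel, had 56400 counts over the 15 mice, and Rps3, at the mRNA entry of the small subunit, had 40699. These 2 genes held 24.9% of the 389336 counts on the 79 genes, and the 10 highest held 58.5%. At the other end, 35 genes had fewer than 1000 counts and 15 fewer than 150. Per length, the highest of the 68 genes with enough counts to test were Rpl4 at 278 FPKM (CPM divided by exon length in kilobases), Rpl8 at 179 FPKM and Rps15 at 156 FPKM. The lowest were Rps27a, whose precursor is a fusion with ubiquitin, at 0.465 FPKM, Rpl27 at 0.504 FPKM and Rpl9 at 0.563 FPKM. Rpl4 thus stood 598-fold above Rps27a on this scale. Rps6 had only 55 counts, between 0 and 8 per mouse, and was too low to test.

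Sequence shared with other loci went with low counts. Of all 50-base windows in a gene's coding transcript, a median of 47.7% were found in no other gene for the 79 genes, against 100% for the 14089 coding genes tested. Fewer than 50% of windows were unique in 43 of the 79 genes, or 54.4%, compared with 2.50% of all tested coding genes. Among the 11 genes with at least 10000 counts the median was 78.0% unique, and among the 35 with fewer than 1000 counts it was 33.4%. Rps3 was 97.04% unique and Rpl4 83.5%. Rpl35 was 4.91% unique with 842 counts, and Rps6 was 15.4% unique. The order was not strict, since Rpl5, which carries 5S rRNA into the large subunit, had 5097 counts with 6.16% unique, and Rps16 had 28 counts with 58.4% unique. Across the 79 genes the Spearman rank correlation of counts with percent unique was 0.44, and it was 0.59 without the paralogues Rpl3l, Rpl39l, Rps4l and Rps27l. This is a description across genes, which share libraries and are not independent. Pseudogenes that shared a window with one of the 79 genes numbered 1078, of which 743 were listed in the annotation used, with 8237 counts or 2.12% of those on the 79 genes. Because reads that align to several places were not counted, a level here is that of the uniquely placed reads, and comparisons between genes carry that limit while comparisons of one gene between mice share it.

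**Figure D1:**
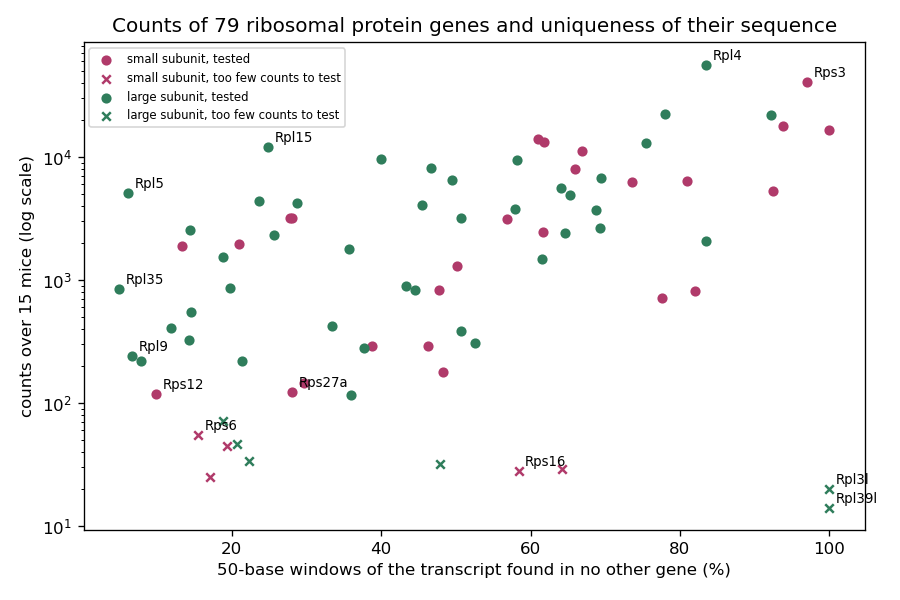
Counts summed over 15 mice (log scale) against the percent of 50-base transcript windows found in no other gene, one point for each of 79 genes, coloured by subunit, with crosses for the 11 genes too low to test. Rpl4 and Rps3 lie at the upper right, Rps6 and Rps12 at the lower left, and the paralogues Rpl3l and Rpl39l at the lower right.

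Paralogues were mostly far below their partners. Rpl3 had 2538 counts and Rpl3l, known from striated muscle, 20. Rpl39 had 2074 counts and Rpl39l, known from testis, 14. The X-linked Rps4x had 3186 counts and Rps4l, which GENCODE annotates as a transcribed processed pseudogene, 817. In raw counts Rps27l was the exception, with 707 against 7 for Rps27, of whose windows 1.35% were unique. Per unique window, Rps27l had 2.03 counts and Rps27 had 1.75. Rpl10 had 219 counts, with 7.87% of windows unique, and Rpl10l none.

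The stalk and platform proteins covered a wide range. Rplp0, the base of the stalk that recruits elongation factors, averaged 65.5 ± 4.61 CPM in young AL mice (SD, n = 4), 62.4 ± 1.60 in young EOD (n = 3), 67.5 ± 5.17 in old AL (n = 4) and 69.1 ± 4.07 in old EOD mice (n = 4). Its partner Rplp1 ranged from 36.3 to 111 CPM over all mice, and Rplp2 from 13.7 to 29.4 CPM. Rpsa, which doubles as a laminin receptor, lay between 0.995 and 2.98 CPM. The SD of log2 CPM within groups was 0.093 for Rplp0 and 0.48 for Rplp1.

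The 79 genes together took 0.247 to 0.297% of all counts. In young AL mice the share was 0.254, 0.280, 0.247 and 0.281%, and in young EOD mice 0.253, 0.253 and 0.274%. In old AL mice it was 0.257, 0.286, 0.296 and 0.297%, and in old EOD mice 0.282, 0.296, 0.261 and 0.279%. The means were 0.265 ± 0.0176% in young AL (SD, n = 4; 0.272% without the third mouse), 0.260 ± 0.0119% in young EOD (n = 3), 0.284 ± 0.0185% in old AL (n = 4) and 0.280 ± 0.0142% in old EOD mice (n = 4). The means of the old groups were higher, but every pair of groups overlapped. The 95% Wilson interval of one mouse's share, which covers counting error only, was at most 0.00934 percentage points wide, less than the range of shares within any group. Within lane 1, old mice had 0.257 and 0.282% and young mice 0.253 to 0.280%. Within lane 2, old mice had 0.286 to 0.296% and young mice 0.247 to 0.274%, without overlap. Within lane 3, old mice had 0.261 to 0.297% and the single young mouse 0.281%.

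**Figure D2:**
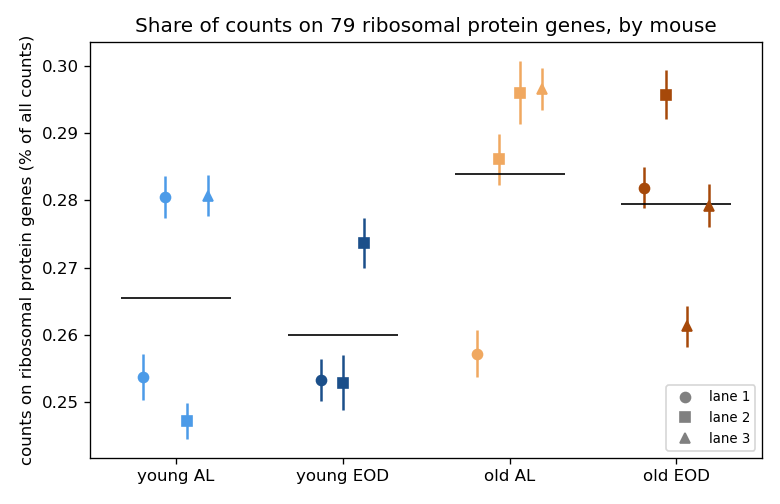
Percent of all counts on the 79 genes in each mouse, by group, with 95% Wilson intervals as bars, group means as lines and the sequencing lane as the marker shape (the vertical axis does not start at 0). Old mice reach 0.297% and young mice 0.281%, and the ranges overlap.

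Single genes were compared in one quasi-likelihood fit (edgeR) of 15864 genes, of which 68 were ribosomal protein genes, at a Benjamini-Hochberg false discovery rate (FDR) under 0.1. None of the 68 passed in any of the 7 comparisons. For age averaged over diets, DESeq2 called 1 of them, and 474 of 26269 genes in all. There limma voom with sample quality weights called 2 of them, Rps14 among them, and 487 of 15864 genes in all. Neither tool called a member in the other comparisons. For age averaged over diets 2.30% of all tested genes passed, for age in AL mice 1.09% and for age in EOD mice 0.290%. No gene of any kind passed for the interaction or for any diet comparison (0% each). At an unadjusted p under 0.05, age averaged over diets gave 4 members higher and 0 lower in old mice, against 5.93% and 5.77% of all tested genes. Age in AL mice gave 2 higher and 2 lower (5.14% and 4.39% of all genes), and age in EOD mice 3 higher and 0 lower (3.06% and 2.68%). Diet gave 5 among the young (4.14%), 1 among the old (2.58%) and 6 when ages were averaged (4.51%), and the interaction gave 4 (2.28%). These counts moved with single mice, and the matching counts over all genes were not computed. For age averaged over diets, 4 became 10 without the second young AL or the third old EOD mouse, 9 without the fourth young AL, 8 without the first old AL and 7 without the third young EOD mouse. For age in AL mice, 4 became 14 (12 higher and 2 lower) without the second young AL mouse, 11 without the fourth, 2 without the third and 7 without the first old AL mouse. For age in EOD mice, 3 became 0 without the second young EOD or the second old EOD mouse, 5 without the second young AL and 6 without the third young AL mouse. The range was 3 to 7 for diet among the young, 0 to 2 among the old, 2 to 9 with ages averaged and 2 to 5 for the interaction.

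The estimates for age leaned upward by a small amount. Averaged over diets, 54 of the 68 genes had a positive log2 fold change (old over young) and the median was 0.07, while the median over all tested genes was -0.0049. The positive share was 79.4%, against 70% of 80 nuclear genes of oxidative phosphorylation and 45.3% of 75 mitochondrial ribosomal protein genes. It was 54.1% of 1545 other nuclear genes in the shortest 10% of those tested. The 68 genes share libraries and are not independent results. The median was 0.06 in AL mice and 0.08 in EOD mice, with all-gene medians of -0.0096 and -0.00036. It was 0.07 for the 26 small-subunit genes and 0.08 for the 42 large-subunit genes. The pooled SD between mice of a group in the members' median deviation was 0.10 on the log2 scale. That is the spread of single mice, not the error of a difference between groups, and the medians were not tested. Of the 68 intervals at 95% for age averaged over diets, 51 lay wholly within a 1.5-fold change in either direction. The same held for 73 of the 75 mitochondrial ribosomal protein genes and 776 of the 1545 short genes. No ribosomal protein gene had all 8 old mice above or all below all 7 young mice, against 0.750% and 0.151% of all tested genes.

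**Figure D3:**
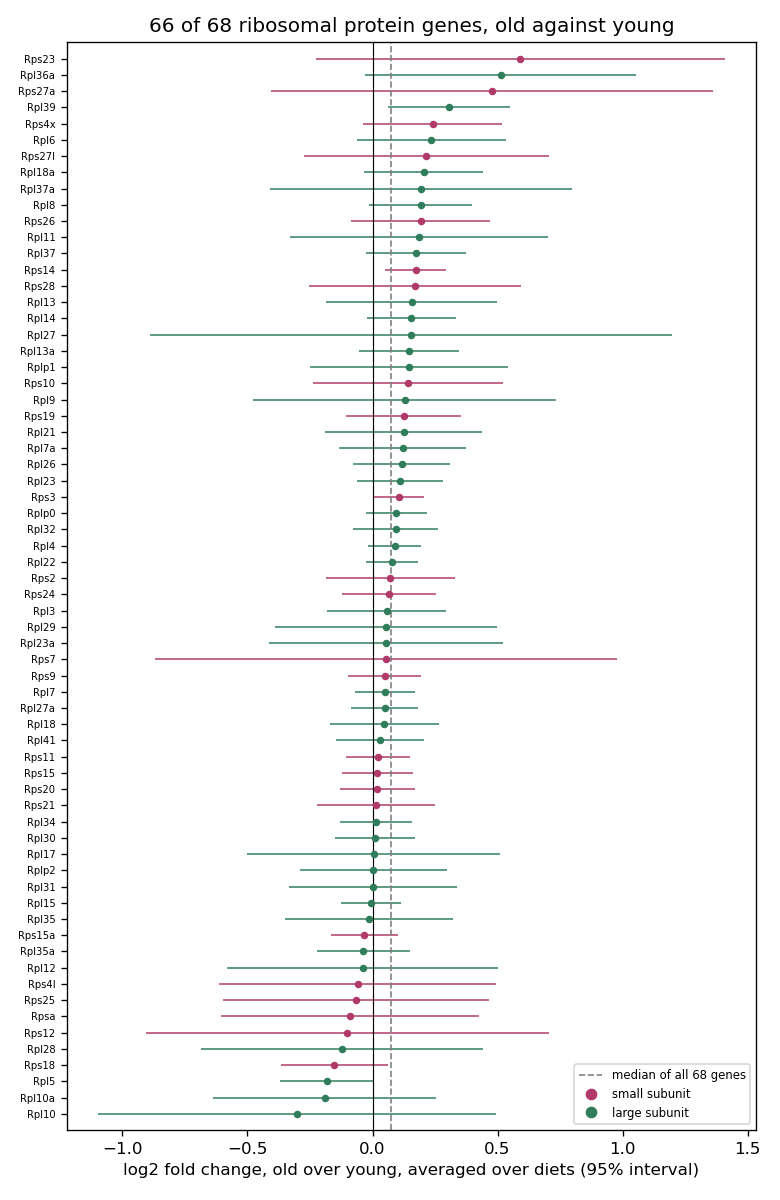
Log2 fold change of old over young mice averaged over diets for 66 of the 68 genes (points) with 95% intervals, coloured by subunit, with the median of the 68 genes dashed. Most points lie right of 0 and most intervals cross it.

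Rps14, a platform protein of the small subunit, measured 83.8, 90.1, 99.4 and 80.8 CPM in young AL, 86.3, 81.3 and 87.4 in young EOD, 86.0, 104, 97.8 and 102 in old AL, and 104, 99.5, 93.8 and 94.4 in old EOD mice. Of the 8 old mice, 7 lay above the young median and 4 above every young mouse. Its log2 fold change with age averaged over diets was 0.17 (SE 0.059, edgeR adjusted p = 0.201), and 0.21 without the third young AL mouse (adjusted p = 0.0684).

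Rpl39, a small protein of the exit tunnel, ranged from 10.3 to 16.7 CPM in young and from 13.1 to 19.8 CPM in old mice, with all 8 old mice above the young median and overlap between ages. The log2 fold change on the same comparison was 0.31 (SE 0.12, edgeR adjusted p = 0.275). Without the second young AL mouse (15.9 CPM) the estimate was 0.39 (adjusted p = 0.0799). Rpl39 passed in no other fit that left out 1 mouse, among them the fit without the fourth old AL mouse (17.7 CPM). Rps3 ranged from 251 to 296 CPM in young and 276 to 321 CPM in old mice, a log2 fold change of 0.11 (SE 0.049, adjusted p = 0.398). Rpl5 had a lower estimate in old mice, at -0.18 (SE 0.090, adjusted p = 0.436), and at -0.11 without the third young AL mouse, in which it was highest (50.8 CPM against 30.1 to 41.8 CPM in the other young mice).

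In EOD mice, Rpl14, a protein of the large subunit, had 18.7 to 20.4 CPM when young and 21.2 to 26.7 CPM when old, without overlap, at a log2 fold change of 0.29 (SE 0.13, adjusted p = 0.831). In AL mice it had 19.0 to 25.5 CPM when young and 20.3 to 25.2 CPM when old. Rpl14 was named for its small p in EOD mice and did not pass the threshold. The share of all tested genes without overlap in that comparison was not computed.

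Diet gave 3 genes with the smallest p in young mice. The third young AL mouse was the highest of all mice for Rpl31 and Rps12. For Rpl35 it lay within the range of the other young AL mice. Rpl31, at the rim of the exit tunnel, measured 8.19, 6.69, 11.3 and 5.35 CPM in young AL and 4.93, 3.95 and 3.81 in young EOD mice, so that every EOD mouse was below every AL mouse. The share of all tested genes separated in this way by diet was not computed. The log2 fold change of Rpl31 (EOD over AL) was -0.89 (SE 0.26, edgeR adjusted p = 0.996) and -0.64 without the third AL mouse. Rpl35 measured 3.49, 6.60, 3.93 and 4.85 CPM in young AL and 6.06, 8.60 and 9.33 in young EOD mice, with overlap, at a log2 fold change of 0.74 (SE 0.23, adjusted p = 0.996) and 0.65 without that mouse. Rps12 had 9, 10, 29 and 9 reads in young AL and 5, 2 and 3 in young EOD mice, and 29 was the third mouse. Its log2 fold change was -1.52 (SE 0.54, adjusted p = 0.996), and without that mouse it had too few reads to be tested. In old mice, Rpl31 ranged from 3.78 to 6.95 CPM in AL and from 5.77 to 6.54 in EOD. The same 3 genes had the smallest p for the interaction, with log2 differences of 0.96 for Rpl31, -0.93 for Rpl35 and 1.66 for Rps12 (edgeR adjusted p = 0.9998 each), so that a different age effect under the 2 diets was not shown.

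**Figure D4:**
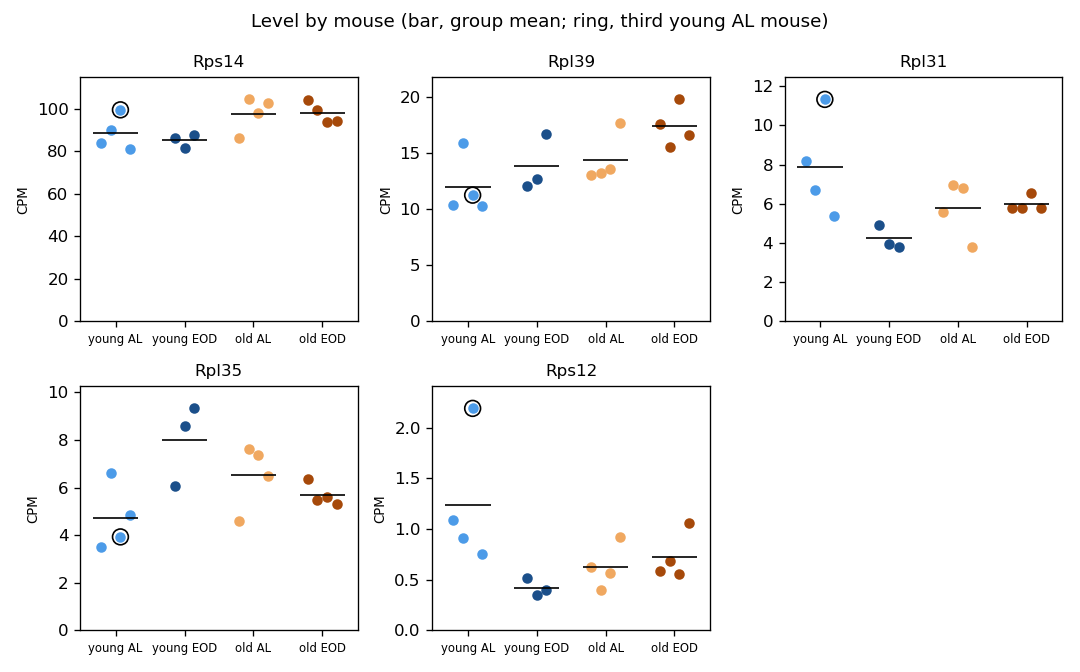
CPM of 5 genes in each mouse by group, with group means as lines and the third young AL mouse ringed. Rps14 and Rpl39 have old means above young means, and for Rpl31 and Rps12 the ringed mouse is the highest of all 15.

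In the old mice, and with ages averaged, the diet estimates belonged to other genes. Rpl30 measured 34.1, 33.5, 31.97 and 31.1 CPM in old AL and 30.1, 29.5, 25.7 and 29.5 in old EOD mice, every EOD mouse below every AL mouse. How many of all tested genes separated old mice by diet in this way was not computed. The log2 fold change of Rpl30 was -0.19 in old mice (SE 0.10, edgeR adjusted p = 0.9999) and -0.21 averaged over ages (adjusted p = 0.983). It was -0.15 averaged over ages without the third young AL mouse, where Rpl30 was highest (40.7 CPM). Rpl29 was lower under EOD, with 2.24 to 5.30 CPM in old AL and 1.84 to 2.85 in old EOD mice, at -0.69 (SE 0.29, adjusted p = 0.9999). Rplp1 averaged over ages was at -0.44 (SE 0.19, adjusted p = 0.983), with 52.0 to 111 CPM in AL and 36.3 to 74.3 CPM in EOD mice. Rpl9 in old mice was at -0.75 (SE 0.39, adjusted p = 0.9999). None passed the threshold. The median log2 fold change over the 68 genes was -0.03 for diet in young mice and 0.0010 in old mice, against all-gene medians of -0.0032 and 0.0026. In old mice 42 of 68 intervals lay within 1.5-fold, against 71 of 75 for mitochondrial ribosomal protein genes and 600 of the 1545 short genes.

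The third young AL mouse was often the most extreme mouse, both among these genes and over all tested genes. It was the single lowest of 15 mice for 21 of the 68 genes, or 30.9%, and the single highest for 14, or 20.6%, and over all tested genes the shares were 21.5% and 20.8%. Rpl37a had 0.906 CPM there against 7.73 to 15.02 CPM in the other 14 mice, and it was the most variable tested gene within groups (SD of log2 CPM 0.93, median of the 68 genes 0.24). Rps7 had no read there, against 1.34 to 1.57 CPM in the other young AL mice. Rps4x stood at 10.5 CPM, against 21.8 to 23.6 CPM in the other 3. Rps3 and Rpl4, which had the most counts, stood within the range of the other young mice. Some other genes at high levels did not. In the third young AL mouse Rpl13a had 109 CPM (138 to 191 CPM in the other young mice) and Rpl8 105 CPM (127 to 172 CPM). Rps15a was above that range, at 151 CPM (109 to 133 CPM).

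**Figure D5:**
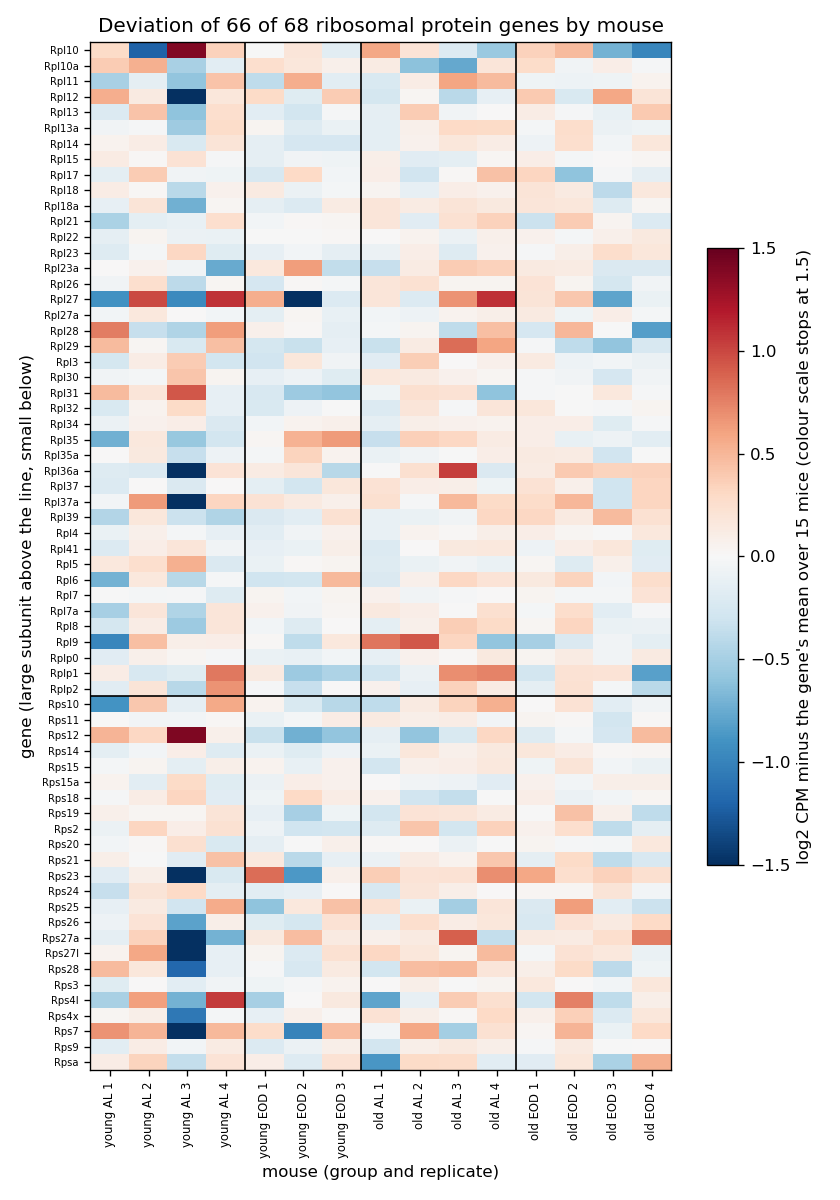
Log2 CPM of 66 of the 68 genes (rows) in 15 mice (columns), as the difference from that gene's mean, blue for lower and red for higher, with the colour scale ending at 1.5. The third young AL column holds the deepest blue cells, among them Rpl37a and Rps7.

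Other genes of translation were tested in the same fit. Of 75 mitochondrial ribosomal protein genes tested, 1 passed for age averaged over diets, Mrps17, which fell (-0.31, edgeR adjusted p = 0.0562), with a list median of -0.0076. Of the 80 nuclear genes of oxidative phosphorylation 1 rose, Cox8b (1.88, adjusted p = 0.0946), and the list median was 0.05. None of 37 initiation factors, 8 elongation factors, 47 ribosome biogenesis genes, 17 other TOP mRNAs and 25 genes of mTOR and translation control passed, with medians of 0.02, 0.05, -0.0047, 0.04 and -0.02. Of the ribosome's genes outside the naming rule, Rack1, a scaffold on the small subunit with 22697 counts and 99.1% unique windows, rose with age at 0.18 (SE 0.049, adjusted p = 0.0872), with means of 151 ± 10.5 CPM in young AL (SD, n = 4), 148 ± 4.96 in young EOD (n = 3), 168 ± 8.78 in old AL (n = 4) and 169 ± 6.61 in old EOD mice (n = 4). Rps3a1, chosen after its values were seen, was at 0.13 (adjusted p = 0.712), and Fau had 63 counts and was not tested. Among the cell-type markers, for age averaged over diets, 4 of 7 microglial genes rose (list median 0.36), 1 of 6 astrocyte genes rose (Gfap, by 1.16 on the log2 scale, with a list median of -0.04 and 4 of the 6 estimates negative) and 1 of 6 oligodendrocyte genes rose (Mbp, 0.29, edgeR adjusted p = 0.0346, list median 0.03). No neuronal marker of 8 passed (list median -0.03). The part of these markers in the ribosomal protein values was not tested.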

How the data were processed

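RNA from whole brain was sequenced as single 50-base reads. Per the file headers, the authors counted reads with featureCounts (1.5.0-p1) on Ensembl release 79, mapping quality at least 5, primary alignments only and stranded. STAR and GRCm38 are named in the submitters' processing notes. The deposited unit is raw counts per gene, not normalized, and exon length comes from the deposited tables.

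Members and lists were chosen with earlier results of these data known. Counts were tested with edgeR (4.0.16, limma 3.58.1, R 4.3.3): TMM scaling, filterByExpr, 1 fit of 4 group means, 7 comparisons, FDR 0.1. CPM uses TMM library sizes, and log2 CPM a prior count of 2. Windows of 50 bases came from GENCODE transcripts. DESeq2 (1.42.0) and limma voom were alternatives. On simulated data for age averaged over diets (15706 genes) 56% of genes changed 1.25-fold and 94% of those changed 1.5-fold were recovered, with 18 false calls. Diet in old mice, where nothing was changed, gave 3 calls. Changed genes were drawn only from those with a mean of at least 5 CPM, and no mouse was simulated as an outlier. The rates therefore do not cover members at lower levels, such as Rpl9 and Rpl27. Replicate pairs differed beyond sampling noise (chi-square per degree of freedom 3.01 to 16.6 over 21 pairs). Named genes were those with the 3 smallest p per comparison (5 for the averaged ones), the 3 highest and lowest per length, the 3 most variable, and set roles and paralogues. Single-gene results of 2 members are not reported here, and those genes are left out of the plots by gene name.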

Additional observations from a re-analysis of the deposited data

Results flagged for a closer look

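In 7 of 84 groups of 4 mice checked, 1 mouse lay far from the other 3 by Dixon's criterion, which chance meets in about 5% of groups of unselected genes. Rps7 was named for its large spread within groups, so that rate does not apply to it. Rps7 and Rps4x were low in the third young AL mouse, Rps7 at 0 CPM (others 1.34 to 1.57) and Rps4x at 10.5 CPM (others 21.8 to 23.6). In the second young AL mouse Rpl39 was high, at 15.9 CPM (others 10.3 to 11.3). It was also high in the fourth old AL mouse, at 17.7 CPM (others 13.1 to 13.6). Among old EOD mice, Rpl31 was high in the third at 6.54 CPM (others 5.77 to 5.80), Rpl30 low in the third at 25.7 CPM (others 29.5 to 30.1) and Rps27a high in the fourth at 1.54 CPM (others 0.910 to 1.01).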

How the results depend on the processing

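Genes named for their small p in a comparison kept the sign of that comparison's log2 fold change under every alternative that could fit them. They were chosen by p in these same mice, so the kept sign is not independent support. Other named genes were not all so stable: for age in AL mice, without the third young AL mouse, Rpl37a went from 0.31 to -0.09 and Rpl10 from -0.49 to 0.12. With every gene of at least 1 count tested, 1 member passed FDR 0.1 for age in AL mice (Rpl8) and 2 for age averaged over diets (Rpl8 among them). In that fit 1 member (Rplp1) passed for diet among the young, among the old and with ages averaged. Of the 26269 genes then tested, 444, 653, 26, 27 and 65 passed in these comparisons in turn. With ages averaged, the edgeR adjusted p of Rplp1 was 9.9e-06 there, against 0.983 in the main fit. For age averaged over diets, DESeq2 called 1 member and limma voom 2. Leaving out 1 mouse at a time gave 0 to 2 members for age averaged over diets and 0 to 1 for age in AL mice, the latter being Rpl5 without the fourth young AL mouse (-0.43, edgeR adjusted p = 0.0560), and 0 in the other comparisons. Over all genes in these fits, 216 to 425 passed for age averaged over diets and 102 to 221 for age in AL mice. The causes were not tested. Over the 15 fits that left out 1 mouse, the median of the members ran from 0.07 to 0.11 for age averaged over diets. For diet in young mice it ran from -0.08 to 0.04, crossing 0. Replicate numbers were shared between groups but did not pair the mice (mean correlation of deviations -0.027 over 21 pairs, from -0.11 to 0.11), and with the replicate block 0 members passed in each comparison and the median for age averaged over diets was 0.08. With the sequencing lane as covariate, 0 members passed. Other scaling (RLE or total counts), a minimum of 10 counts in every mouse and FDR 0.05 called 0. Leaving mitochondrially encoded genes out of the total raised the share of counts to 0.298% in old AL and 0.277% in young AL mice. Low counts limit 11 members, which were not tested.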
